A study of Mus musculus with 12 samples.

Results

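Insulin makes adipocytes take up glucose and store it as fat, and the genes described here encode the relay from the insulin receptor to the glucose transporter at the cell surface. They are Insr, Irs1, Irs2, Pik3r1, Akt2, Grb14, Tbc1d4 and Slc2a4, taken by gene symbol, and they are 8 of the 55281 genes counted in gonadal white adipose tissue (GWAT). All 8 passed the filter on low counts. In HoipA-KO GWAT the fitted level of every one of the 8 was below that of WT on both diets, with the largest fall on the control diet in Slc2a4. With 11 libraries, 7 of 8 passed the test on each diet, all but Grb14 on the control diet and all but Pik3r1 on the high-fat diet. Of all genes tested, 18.8% passed as lower on the control diet and 7.62% on the high-fat diet. With all 12 libraries, 5 of 8 passed on the control diet and 0 of 8 on the high-fat diet. In that fit 19.1% of all genes passed as lower on the control diet and 2.25% on the high-fat diet.

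Insulin binds its receptor, a tyrosine kinase that phosphorylates insulin receptor substrates. These dock the regulatory subunit of PI3 kinase, and the lipid made by PI3 kinase recruits the kinase Akt. Akt phosphorylates Tbc1d4 (AS160), a GTPase-activating protein that holds vesicles with the glucose transporter GLUT4, the product of Slc2a4, inside the resting cell, and this brake on glucose uptake is then released. Akt also acts on FOXO factors, glycogen synthesis, lipolysis and fat synthesis, and the pathway is restrained by adaptors such as Grb14 and by phosphatases.

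Bulk polyA RNA sequencing covered GWAT of male WT (Hoip fl/fl AdipoQ.Cre-) and HoipA-KO (Hoip fl/fl AdipoQ.Cre+) mice fed a control diet (CD, 14% fat per the labels) or a high-fat diet (HFD, 60% fat) for 16 weeks from 6 weeks of age. Both genotypes carry floxed alleles of Hoip (Rnf31), which encodes the catalytic subunit of the linear ubiquitin chain assembly complex, and the Cre driven by the adiponectin promoter acts in mature adipocytes, so the other cells of the tissue keep the gene. Each of the 4 groups has 3 libraries, and each library pools RNA of 3 mice, so spreads are between pools. The comparison of genotypes asks what the loss of HOIP in adipocytes does to the tissue, and that of diets what the high-fat diet does.

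The libraries held 30513500 to 60540260 counts, and the 8 genes had 212 to 16040 counts each per library, so none was near the floor of 3 counts (0.0533 to 0.0996 CPM, counts scaled to the library size after TMM normalization). WT CD replicate 3 stood apart: it correlated with the other WT CD pools at r = 0.785 to 0.794 across genes, against 0.907 to 0.993 for the other pairs of a group, and it held 9124 CPM of 7 male germ cell markers, against at most 434 CPM in the other 11 libraries. WT CD replicate 2 held 15053 CPM of 7 epididymal epithelium markers, mostly Crisp1 (12605 CPM) and Adam7 (2373 CPM). HoipA-KO HFD replicate 1 held 1311 CPM of these, of which Crisp1 alone was 1309 CPM. That library also held 189.8 CPM of 8 skeletal muscle markers, mostly Acta1 (106 CPM), Tnnc2 (39.9 CPM) and Ckm (39.3 CPM). The deposited comparisons of the study leave out WT CD replicate 3, and so do the tests here unless 12 libraries are named, while levels are given for all 12. Rnf31 itself did not pass the test on CD (log2 fold change -0.08, SE 0.136, edgeR adjusted p = 0.654) or on HFD (0.13, SE 0.122, adjusted p = 0.491). The tissue's other cells carry it and the counts take in all its exons, and the part of either in these values was not tested.

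Marker genes of the tissue's cell types moved with genotype. The 10 adipocyte markers summed to 11942 to 42247 CPM in the 6 WT libraries and to 5329 to 8843 CPM in the 6 HoipA-KO libraries, with none of them at 0, and all 10 passed the test as lower on CD and 9 of 10 on HFD. The 9 macrophage markers summed to 391 to 635 CPM in WT CD, 1758 to 5361 CPM in WT HFD, 8960 to 12088 CPM in HoipA-KO CD and 6648 to 10734 CPM in HoipA-KO HFD, and 8 of 9 passed as higher on CD and 3 of 9 on HFD. The 6 endothelial markers summed to 349 to 1060 CPM in WT and 308 to 581 CPM in HoipA-KO, and 2 of 6 passed as lower on CD and 3 on HFD. The 6 progenitor markers summed to 701 to 2871 CPM in WT and 2869 to 4006 CPM in HoipA-KO, and 4 of 6 passed as higher on CD and 0 on HFD. With 12 libraries, the counts on CD and HFD were 8 and 7 of 10 for the adipocyte, 8 and 0 of 9 for the macrophage, 1 and 0 of 6 for the endothelial and 4 and 0 of 6 for the progenitor markers. Over all genes tested with 11 libraries, 18.8% were called lower and 18.9% higher on CD, and 7.62% lower and 4.20% higher on HFD. The part of these shifts in the results below was not tested beyond the levels given against the adipocyte markers. In bulk tissue, fewer cells of a type and less RNA per cell cannot be told apart, which holds for every level below.

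The genes lie on 7 chromosomes of GRCm38, and all are protein-coding. Slc2a4 (ENSMUSG00000018566) is the shortest, at chr11:69942539-69948188 on the minus strand, with 3478 bases of annotated exon. Insr (ENSMUSG00000005534, chr8:3122061-3279617, minus strand) has the most exon sequence, 13746 bases. Irs1 (ENSMUSG00000055980, chr1:82233101-82291416) and Irs2 (ENSMUSG00000038894, chr8:10984681-11008458) lie on the minus strand, as do Pik3r1 (ENSMUSG00000041417, chr13:101680563-101768217), Grb14 (ENSMUSG00000026888, chr2:64912476-65024987) and Tbc1d4 (ENSMUSG00000033083, chr14:101442360-101609191). Akt2 (ENSMUSG00000004056, chr7:27591552-27640826) is the only one on the plus strand.

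Since 7 of the 8 genes were called lower on each diet, the sequence before their start sites is shown for 4 of them, both substrates, the inhibitor Grb14 and Tbc1d4. Each run is the 250 bases before a RefSeq start site (build GRCm38.p6), 5′ to 3′ on the gene's strand, with matches to the searched motifs in capitals. All 4 genes are on the minus strand. The Grb14 window lies inside the annotated gene, whose 5′ end is at 65024987, and 16 of its bases are in annotated exons.
Irs1, chr1:82291440-82291689: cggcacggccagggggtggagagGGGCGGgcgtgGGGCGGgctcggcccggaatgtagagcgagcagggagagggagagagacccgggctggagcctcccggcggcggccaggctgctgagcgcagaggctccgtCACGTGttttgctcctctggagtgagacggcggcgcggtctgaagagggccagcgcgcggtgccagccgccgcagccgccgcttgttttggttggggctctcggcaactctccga
Irs2, chr8:11008930-11009179: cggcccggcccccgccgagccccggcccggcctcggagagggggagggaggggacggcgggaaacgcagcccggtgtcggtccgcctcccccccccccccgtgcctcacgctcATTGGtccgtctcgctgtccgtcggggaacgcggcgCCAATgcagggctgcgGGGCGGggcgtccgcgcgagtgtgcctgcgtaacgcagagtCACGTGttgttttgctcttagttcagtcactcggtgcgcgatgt
Grb14, chr2:65022767-65023016: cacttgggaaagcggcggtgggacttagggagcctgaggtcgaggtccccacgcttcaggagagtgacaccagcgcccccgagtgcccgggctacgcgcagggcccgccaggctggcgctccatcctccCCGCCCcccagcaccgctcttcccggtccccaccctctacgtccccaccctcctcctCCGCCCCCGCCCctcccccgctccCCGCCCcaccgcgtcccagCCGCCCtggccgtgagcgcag
Tbc1d4, chr14:101609192-101609441: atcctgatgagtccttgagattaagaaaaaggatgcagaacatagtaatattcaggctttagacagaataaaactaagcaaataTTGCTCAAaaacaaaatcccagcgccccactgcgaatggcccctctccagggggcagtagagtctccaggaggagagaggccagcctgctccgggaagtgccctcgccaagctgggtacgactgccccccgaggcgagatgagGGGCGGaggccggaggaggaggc

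RefSeq gave 10 such windows for 6 of the 8 genes, and Insr and Slc2a4 were not among them. Both strands were searched for 8 motifs, and adjoining matches in Grb14 do not overlap. The E-box CACGTG, bound by basic helix-loop-helix factors, was in the windows of Irs1 and Irs2, that is in 2 of 10, and in 6.02% of the 32851 promoter windows in the table. In Irs1 it begins 115 bases before the start and in Irs2 44 bases before it. The C/EBP motif TTGCNNAA was in the Tbc1d4 window only (9.56% of all windows). The GC box GGGCGG was in 6 of 10 windows (32.7% of all), with 5 matches in Grb14, all on the opposite strand. The CCAAT box was in 2 windows, Irs2 and Pik3r1 (33.8% of all), and the TATA box TATAAA in 1, the inner start of Pik3r1 (12.4%). The forkhead motif GTAAACA (3.17% of all windows), the nuclear receptor half-site AGGTCA (14.0%) and the sterol regulatory element TCACNCCAC (1.05%) were in none, which says only that these letters are not in these windows. GC content was 72.4% in the Irs1 window, 72.8% in Irs2, 75.2% in Grb14 and 54.8% in Tbc1d4, against a median of 52.4% over all windows. The Akt2 windows were at 48.8%, 53.6%, 58.8% and 51.2%, and those of Pik3r1 at 76.4% and 42.4%, so the windows lay on both sides of the median. These matches are descriptions of sequence, and binding was not measured.

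On CD, 7 of the 8 genes fell in HoipA-KO against WT and none rose. Over all 18427 genes tested, 18.8% were called lower and 18.9% higher. The median log2 fold change of the 8 was -1.21, against -0.06 over all genes. With all 12 libraries, 5 of the 8 were called lower, Insr, Irs1, Akt2, Tbc1d4 and Slc2a4, where 19.1% of 18074 genes were called lower and 15.6% higher, and the median over all genes was -0.21. In 5 of the 8, every HoipA-KO CD library was below every WT CD library over the 12 libraries, as in 19.3% of all genes.

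On HFD, 7 of 8 fell as well and none rose, where 7.62% of all genes were called lower and 4.20% higher. The median log2 fold change of the 8 was -0.98, against 0.06 over all genes. Scaled by library size in place of TMM (trimmed mean of M-values), the calls over all genes were 1133 lower and 1279 higher in place of 1405 and 774, and 6 of the 8 were called, all but Tbc1d4 and Pik3r1. With all 12 libraries the HFD libraries are the same, but the shared estimate of the spread rose from a coefficient of variation of 0.394 to 0.514, and 0 of 8 passed, with adjusted p-values from 0.0590 to 0.387, where 2.25% of all genes were called lower and 0.531% higher. At an unadjusted p of 0.05 in the fit of 11 libraries, 7 of 8 passed, as did 5812 of 18427 genes. DESeq2 also called 7 of the 8, and over all genes it called 2239 lower and 2216 higher. In 7 of the 8 genes every HoipA-KO HFD library was below every WT HFD library, as in 24.0% of all genes. The calls on HFD also rest on single libraries, in the 8 as over all genes. Of the 8, 0 passed without replicate 1 or 2 of WT HFD or replicate 2 of HoipA-KO HFD. When replicate 3 of HoipA-KO HFD was left out 2 passed, and 4 when replicate 1 of HoipA-KO CD was. Over all genes, 237 were called lower and 42 higher without WT HFD replicate 1, and 293 and 38 without WT HFD replicate 2. These calls were 248 and 65 without HoipA-KO HFD replicate 2, and 443 and 107 without HoipA-KO HFD replicate 3. Without HoipA-KO CD replicate 1 they were 862 and 264. On CD, 4 passed without WT CD replicate 1 (Insr, Irs1, Tbc1d4 and Slc2a4) and 5 to 8 without another library.

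The size of the falls on CD depended on WT CD replicate 1. Without it, the log2 fold change on CD was -1.14 for Insr, -1.25 for Irs1, -0.32 for Irs2, -0.61 for Pik3r1, -0.47 for Akt2, -0.45 for Grb14, -0.79 for Tbc1d4 and -1.70 for Slc2a4. With replicates 2 and 3 as the WT CD pools, it was -0.81 for Insr, -0.93 for Irs1, -0.10 for Irs2, -0.35 for Pik3r1, -0.31 for Akt2, -0.40 for Grb14, -0.42 for Tbc1d4 and -1.41 for Slc2a4, and Insr, Irs1 and Slc2a4 passed. Without WT CD replicate 2, in turn, Slc2a4 was at -2.98, Irs1 at -2.23 and Irs2 at -1.30.

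**Figure D1:**
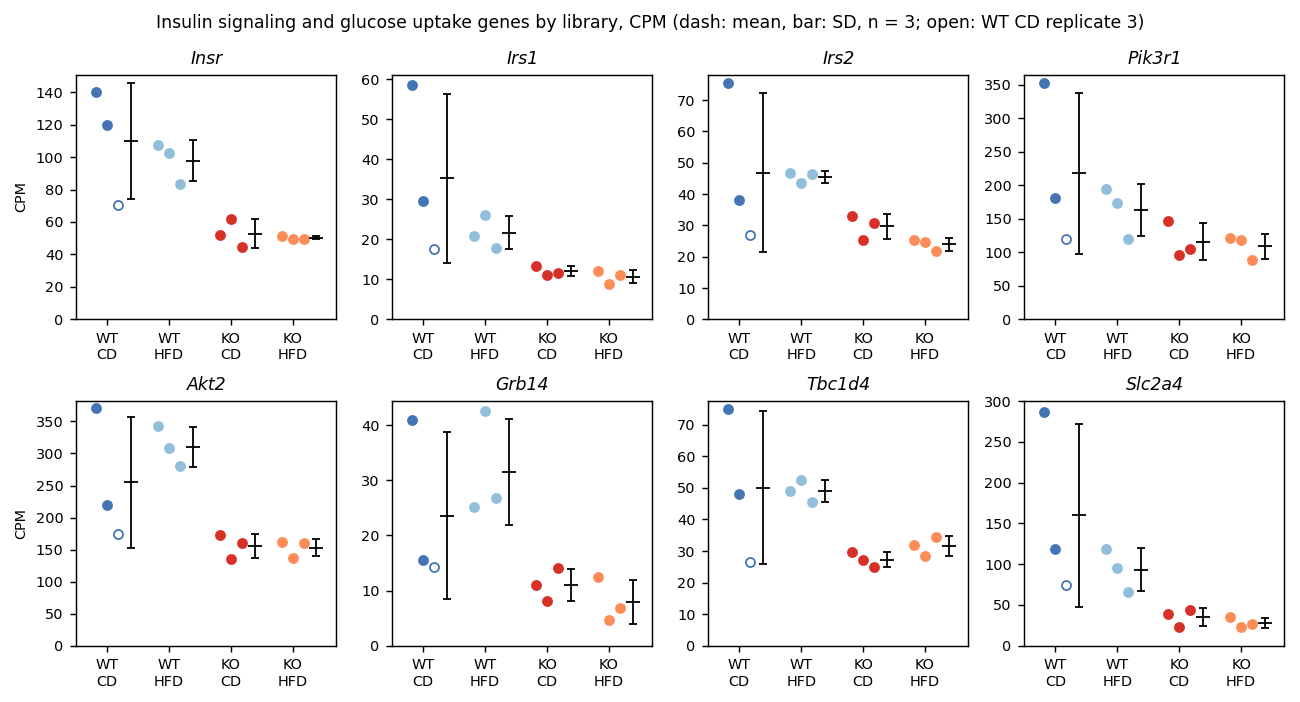
CPM of the 8 genes in each of the 12 libraries by group, 1 panel per gene, with the y axis from 0; the dash and bar are the mean and SD of 3 libraries, and the open circle is WT CD replicate 3. WT CD replicate 1 was the highest of the 12 libraries in 7 panels, and in Grb14 it was second to a WT HFD library, while the HoipA-KO libraries lie low and close together.

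**Figure D2:**
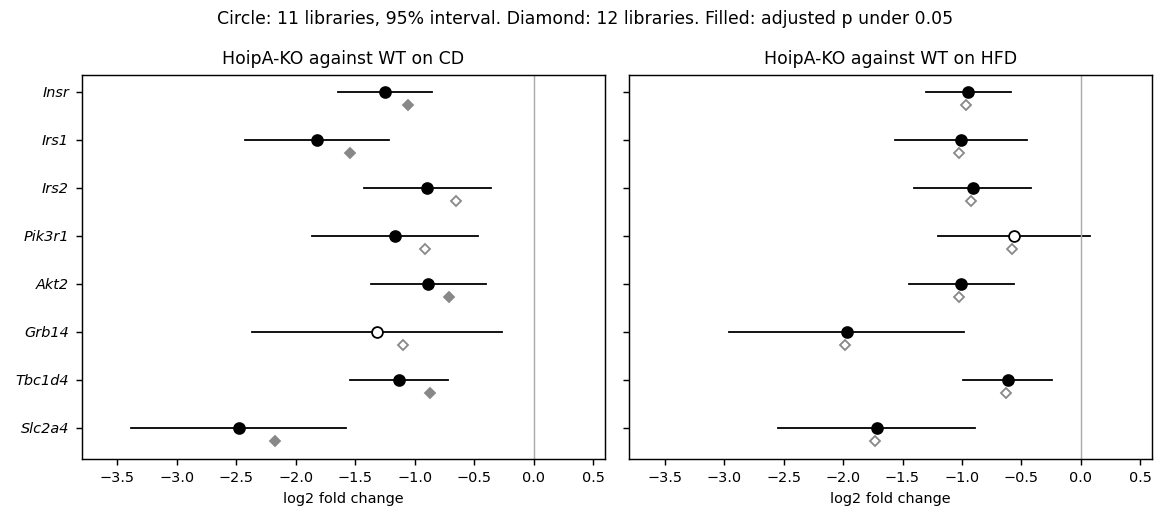
Log2 fold change of HoipA-KO against WT (x axis) for each gene on CD (left) and HFD (right). Circles with 95% intervals are the fit of 11 libraries and diamonds that of 12, filled where the adjusted p was under 0.05; every symbol lies below 0, Slc2a4 is farthest from 0 on CD and Grb14 on HFD, and all diamonds on HFD are open.

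Insr encodes the insulin receptor. Its level on CD was 140.0, 119 and 70.2 CPM in the 3 WT libraries and 51.9, 62.1 and 44.4 CPM in the HoipA-KO libraries. On HFD it was 108, 102 and 83.3 CPM in WT and 51.2, 49.6 and 49.7 CPM in HoipA-KO. All 6 HoipA-KO libraries were below all 6 WT libraries, and the 3 HoipA-KO HFD libraries were almost level. The log2 fold change was -1.25 on CD (SE 0.176, edgeR adjusted p = 0.000891), a level 2.38-fold lower, and stayed called with 12 libraries (-1.06, adjusted p = 0.00898). The HFD value was -0.95 (SE 0.161, edgeR adjusted p = 0.0123), 1.93-fold lower, with an adjusted p of 0.0590 with 12 libraries.

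Irs1 encodes an insulin receptor substrate that is phosphorylated by the receptor and docks PI3 kinase. It was at 58.7, 29.5 and 17.7 CPM in WT CD and at 13.4, 11.2 and 11.7 CPM in HoipA-KO CD. In WT HFD it was at 20.9, 26.1 and 17.9 CPM, and in HoipA-KO HFD at 12.1, 8.81 and 11.1 CPM. The groups of the 2 genotypes did not overlap on either diet, and WT CD replicate 1 was far above every other library. On CD the log2 fold change was -1.82 (SE 0.271, edgeR adjusted p = 0.00109), 3.54-fold lower, and with 12 libraries it was -1.54 (adjusted p = 0.0119). The HFD value was -1.01 (SE 0.248, edgeR adjusted p = 0.0343), 2.01-fold lower.

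Irs2, the other main substrate, was at 75.5, 38.04 and 27.1 CPM in WT CD and at 33.1, 25.3 and 30.9 CPM in HoipA-KO CD. In WT HFD it was at 46.8, 43.4 and 46.3 CPM and in HoipA-KO HFD at 25.4, 24.7 and 21.7 CPM. The genotypes overlapped on CD through WT CD replicate 3 alone, and they were well apart on HFD. The log2 fold change on CD was -0.89 (SE 0.239, edgeR adjusted p = 0.0167), and with 12 libraries it was -0.66 and did not pass (adjusted p = 0.118). The HFD value was -0.91 (SE 0.219, edgeR adjusted p = 0.0314), 1.88-fold lower.

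Per kilobase of exon, Irs1 was at 0.452 to 0.538 of the level of Irs2 in WT CD and at 0.262 to 0.306 in HoipA-KO CD, with no overlap. On HFD the ratio was 0.268 to 0.416 in WT and 0.247 to 0.355 in HoipA-KO, which overlap. Irs3, a substrate that rodents have and that is made mainly in adipocytes, fell on both diets, by 1.44 on the log2 scale on CD (SE 0.288, edgeR adjusted p = 0.00441) and by 1.41 on HFD (SE 0.266, adjusted p = 0.0155; 0.0657 with 12 libraries). Its level was 19.7 to 63.6 CPM in the 6 WT libraries and 11.99 to 20.1 CPM in the 6 HoipA-KO libraries. Irs4 did not pass the filter on low counts.

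Pik3r1 encodes the p85 alpha regulatory subunit of PI3 kinase, which binds the phosphorylated substrates. It was at 352, 182 and 120.1 CPM in WT CD and at 147, 95.6 and 105 CPM in HoipA-KO CD. On HFD it was at 195, 174 and 120.4 CPM in WT and at 122, 118 and 88.1 CPM in HoipA-KO. This was the only one of the 8 whose genotypes overlapped on both diets over the 12 libraries. On CD the log2 fold change was -1.16 (SE 0.313, edgeR adjusted p = 0.0169), and with 12 libraries it was -0.91 (adjusted p = 0.0740). On HFD it did not pass: the log2 fold change was -0.56, with a 95% interval of -1.20 to 0.07 and an edgeR adjusted p of 0.205.

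Akt2, the Akt kinase on which insulin-driven glucose uptake most depends, was at 370.4, 220.2 and 175 CPM in WT CD and at 172, 135 and 159.5 CPM in HoipA-KO CD. In WT HFD it was at 343, 308 and 280.1 CPM and in HoipA-KO HFD at 162, 137 and 159.8 CPM. The groups were far apart on HFD, whereas on CD WT replicate 3 was only just above the highest HoipA-KO library. The log2 fold change was -0.89 on CD (SE 0.216, edgeR adjusted p = 0.0112; 0.0496 with 12 libraries) and -1.01 on HFD (SE 0.198, adjusted p = 0.0172; 0.0597 with 12 libraries).

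Akt1, the broadly expressed Akt kinase, moved the other way. On the log2 scale it rose by 1.29 on CD (SE 0.204, edgeR adjusted p = 0.00142) and by 0.70 on HFD (SE 0.176, adjusted p = 0.0354; 0.113 with 12 libraries). The ratio of Akt2 to Akt1 per kilobase of exon was 1.96, 1.44 and 1.64 in WT CD and 1.74, 1.33 and 0.982 in WT HFD. It was 0.424, 0.337 and 0.384 in HoipA-KO CD and 0.491, 0.317 and 0.414 in HoipA-KO HFD. Akt2 was thus above Akt1 in 5 of 6 WT libraries and below it in all 6 HoipA-KO libraries. Pik3r2, the p85 beta subunit, passed on neither diet (0.36 with an adjusted p of 0.107 on CD, and 0.43 with 0.0792 on HFD), while Pik3r1 stood at 1.09 to 2.77 times Pik3r2 per kilobase in WT and at 0.641 to 1.10 times in HoipA-KO. The macrophage marker sums given above moved in the same direction as Akt1, and their part in these ratios was not tested.

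Grb14 encodes an adaptor that binds the active receptor and inhibits its kinase, a brake at the level of the receptor. Its level was 41.0, 15.5 and 14.4 CPM in WT CD and 10.98, 8.09 and 14.0 CPM in HoipA-KO CD. On HFD it was 25.1, 42.5 and 26.9 CPM in WT and 12.4, 4.71 and 6.83 CPM in HoipA-KO. The WT libraries were above the HoipA-KO libraries on both diets, though barely so on CD. On CD it did not pass (log2 fold change -1.32, 95% interval -2.37 to -0.27, edgeR adjusted p = 0.0505; -1.10 and 0.0960 with 12 libraries). On HFD it had the largest fall of the 8, by 1.97 on the log2 scale (SE 0.441, edgeR adjusted p = 0.0255), a level 3.92-fold lower. Its relative Grb10 passed on neither diet, with log2 fold changes of -0.63 (CD, adjusted p = 0.0852) and -0.40 (HFD, adjusted p = 0.282).

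Tbc1d4 was at 75.1, 48.2 and 26.7 CPM in WT CD and at 29.8, 27.2 and 24.9 CPM in HoipA-KO CD. On HFD it was at 48.9, 52.5 and 45.4 CPM in WT and at 31.8, 28.4 and 34.5 CPM in HoipA-KO. WT CD replicate 3 lay within the HoipA-KO CD range, and the groups did not overlap on HFD. The log2 fold change was -1.13 on CD (SE 0.184, edgeR adjusted p = 0.00163; 0.0435 with 12 libraries) and -0.62 on HFD (SE 0.167, adjusted p = 0.0436; 0.244 with 12 libraries). The related Tbc1d1 did not pass on CD (-0.10, 95% interval -1.14 to 0.94) or HFD (0.62, 95% interval -0.32 to 1.56).

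Slc2a4 encodes GLUT4, which moves to the surface when insulin acts. It was at 287, 118 and 74.4 CPM in WT CD and at 39.2, 22.8 and 44.3 CPM in HoipA-KO CD. On HFD it was at 118, 95.7 and 65.6 CPM in WT and at 35.1, 22.4 and 26.7 CPM in HoipA-KO. Every WT library was above every HoipA-KO library. On CD the log2 fold change was -2.48 (SE 0.403, edgeR adjusted p = 0.00165), a level 5.58-fold lower, and with 12 libraries it was -2.17 (adjusted p = 0.00773). The value was -1.70 without WT CD replicate 1, the library at 287 CPM, and still passed. The HFD value was -1.72 (SE 0.371, edgeR adjusted p = 0.0231), 3.29-fold lower, with an adjusted p of 0.0726 with 12 libraries.

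The other glucose transporters moved in both directions: of 10, 3 rose and 6 fell on CD, and 1 fell on HFD. Slc2a1 encodes GLUT1, the transporter of basal uptake in most cells, and it rose on CD by 1.21 on the log2 scale (SE 0.294, edgeR adjusted p = 0.0110; 0.00719 with 12 libraries), while on HFD its log2 fold change of 0.75 did not pass (adjusted p = 0.0809). Per kilobase of exon, Slc2a4 stood at 13.5, 4.92 and 5.67 times Slc2a1 in WT CD and at 5.98, 5.33 and 3.04 times in WT HFD. In HoipA-KO CD the ratio was 0.893, 0.385 and 0.899, and in HoipA-KO HFD 1.23, 0.475 and 1.18. GLUT4 transcript was thus above GLUT1 transcript in all 6 WT libraries, and in 4 of 6 HoipA-KO libraries it was below.

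Slc2a6 and Slc2a9 also rose on CD (2.91, adjusted p = 0.000493, and 1.78, adjusted p = 0.00250, both edgeR) and did not pass on HFD. Slc2a10, Slc2a12 and Slc2a13 fell on CD by 1.59, 2.17 and 2.54 on the log2 scale, the first of these no longer with 12 libraries (adjusted p = 0.199), and none of the 3 passed on HFD. Slc2a10 was at 8.26, 30.9 and 2.71 CPM in WT CD and at 5.83 to 7.21 CPM in HoipA-KO CD, so it was highest in the library with epididymal transcripts, whose part in this fall was not tested, and WT CD replicate 3 lay below every HoipA-KO CD library. Slc2a2 (GLUT2), at a mean of 0.935 CPM, fell on both diets, by 1.20 on CD (edgeR adjusted p = 0.0288) and by 1.80 on HFD (adjusted p = 0.0152). Slc2a8 did not pass on CD (-0.06, 95% interval -0.57 to 0.45). Slc2a3, the most abundant of these by mean CPM, and Slc2a5 were called lower on CD, but they were highest in the WT CD libraries with germ cell transcripts: Slc2a3 was at 35.0, 77.4 and 638 CPM in WT CD and at 5.72 to 14.3 CPM elsewhere, and Slc2a5 at 0.414, 27.2 and 334 CPM in WT CD and at most 0.204 CPM elsewhere. The male germ cell sums of those 3 libraries were 18.3, 434 and 9124 CPM.

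**Figure D3:**
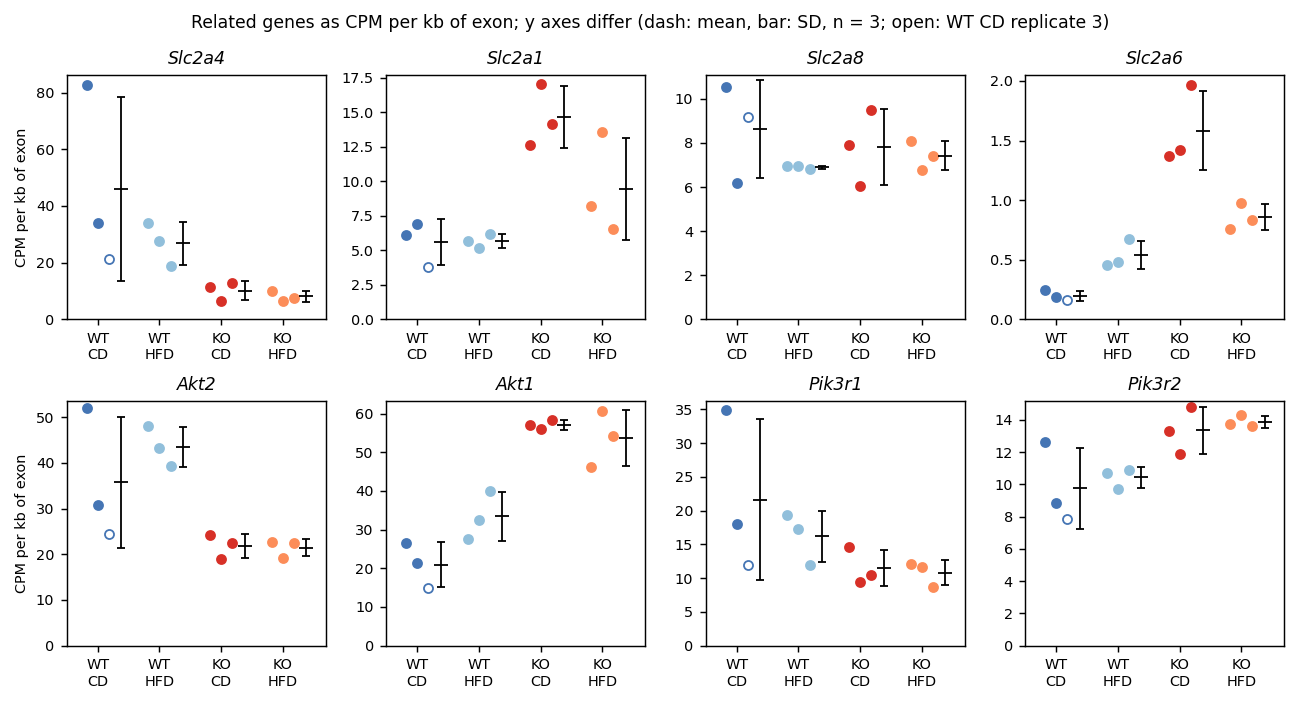
CPM per kilobase of exon by library for Slc2a4 beside Slc2a1, Slc2a8 and Slc2a6, Akt2 beside Akt1, and Pik3r1 beside Pik3r2, with the dash and bar for the mean and SD of 3 libraries and the open circle for WT CD replicate 3; the y axes start at 0 and differ between panels. Slc2a4, Akt2 and Pik3r1 are low in HoipA-KO, where Akt1 and Slc2a6 are high.

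Of 80 other genes of the pathway, 79 passed the filter. On CD, 20 were called higher and 25 lower, and on HFD 3 higher and 15 lower (with 12 libraries 17 and 21 on CD, and 0 and 3 on HFD). Among all genes tested, 18.9% were called higher and 18.8% lower on CD, and 4.20% and 7.62% on HFD. With 12 libraries these shares were 15.6% and 19.1% on CD, and 0.531% and 2.25% on HFD. Their median log2 fold change was -0.14 on CD and -0.13 on HFD, against -0.06 and 0.06 over all genes. The counts by role follow, and some of them are near the shares over all genes.

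Of the 12 targets and effectors of insulin action, 9 fell on CD and the same 9 fell on HFD, and 1, Foxo3, rose on CD. With 12 libraries 8 fell on CD and 1 on HFD, Pde3b. The median log2 fold change was -1.47 on CD and -0.99 on HFD. Pde3b, the phosphodiesterase through which insulin restrains lipolysis, fell on CD by 2.19 (SE 0.323, edgeR adjusted p = 0.00105) and by 1.90 on HFD (SE 0.300, adjusted p = 0.00999; 0.0322 with 12 libraries), from 179.7 to 404 CPM in WT to 41.7 to 73.9 CPM in HoipA-KO. Hk2 (hexokinase 2, which traps glucose in the cell) fell by 2.41 and 1.65, and Gys1 (glycogen synthase) by 1.70 and 1.11. Mlxipl (the glucose-sensing factor ChREBP) fell by 2.50 and 2.08, and Srebf1, an insulin-driven factor of fat synthesis, by 1.35 and 0.79. Acly, which makes acetyl-CoA for fat synthesis and was the most abundant of the role, fell by 1.59 and 0.87. Foxo1 and Foxo4, factors that Akt keeps out of the nucleus, fell as well, Foxo1 by 1.41 and 1.22 and Foxo4 by 0.58 and 0.60. Eif4ebp1, a brake on translation under mTOR, fell by 1.53 and 1.24. Gsk3a and Gsk3b did not pass on either diet.

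Among receptors and adaptors, 3 of 11 tested rose and 3 fell on CD, and 2 fell on HFD. Grb2, which links receptors to Ras and was the most abundant of the role, rose by 1.39 on CD (SE 0.240, edgeR adjusted p = 0.00216) and had a log2 fold change of 0.63 on HFD (adjusted p = 0.0727). Igf1r, the receptor nearest to Insr, passed on neither diet (-0.88 with an adjusted p of 0.0701 on CD, and -0.09 on HFD with a 95% interval of -0.80 to 0.61). It was at 18.9, 53.7 and 20.5 CPM in WT CD and at 17.0 to 21.7 CPM in HoipA-KO CD. It was thus highest in WT CD replicate 2, the library with epididymal transcripts, whose part in the value on CD was not tested.

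Of 18 genes of PI3 kinase, Akt and mTOR, 2 rose and 3 fell on CD, and 1 rose and 2 fell on HFD. Beside Akt1, which was the most abundant of them and the only one to rise on both diets, Mtor fell by 0.62 and 0.60 and Rps6kb1, the S6 kinase under mTOR, by 0.67 and 0.76, on CD and HFD in that order. With 12 libraries the log2 fold change of Mtor on CD was -1.10 (edgeR adjusted p = 0.0115), Rps6kb1 did not pass on CD (adjusted p = 0.178), and neither passed on HFD. Mtor was at 75.3, 65.2 and 145 CPM in WT CD. It was thus highest in replicate 3, the library with germ cell transcripts, whose part in the value of 12 libraries was not tested. The catalytic subunit Pik3ca did not pass on either diet (-0.06 and -0.21).

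Of 12 inhibitors and phosphatases, 5 rose and 2 fell on CD, and 1 rose on HFD. Socs3, which blocks the receptor and is induced by cytokines, rose by 1.51 on CD (SE 0.254, edgeR adjusted p = 0.00192) and by 0.97 on HFD (SE 0.216, adjusted p = 0.0255; 0.0634 with 12 libraries), from 5.38 to 13.2 CPM in WT to 16.1 to 27.7 CPM in HoipA-KO. Ptpn1 (PTP1B), the phosphatase of the receptor, rose by 1.77 on CD (SE 0.279, adjusted p = 0.00139) and did not pass on HFD (0.80, adjusted p = 0.0546). Ppp2r5c was called higher on CD with 11 libraries (0.77, adjusted p = 0.0154) and had the opposite sign with 12 (-0.05). It was at 79.6, 87.9 and 264 CPM in WT CD and at 115 to 164 CPM in HoipA-KO CD. WT CD replicate 3, the library with germ cell transcripts, was thus the highest, and the part of these transcripts was not tested.

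Of 16 genes of transporter traffic, 6 rose and 2 fell on CD, and 1 rose and 1 fell on HFD. Stx4a, the surface SNARE protein to which GLUT4 vesicles fuse, rose by 0.72 on CD (SE 0.151, edgeR adjusted p = 0.00565) and by 0.53 on HFD (SE 0.133, adjusted p = 0.0360; 0.232 with 12 libraries). Cltc, the clathrin heavy chain and the most abundant of the role, rose by 1.02 on CD (adjusted p = 0.0294) and had a log2 fold change of 0.22 on HFD (95% interval -0.39 to 0.83). Sort1 (sortilin), which helps to form the GLUT4 vesicles, fell by 1.54 on CD (SE 0.285, adjusted p = 0.00309) and did not pass on HFD (-0.71, adjusted p = 0.0986).

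**Figure D4:**
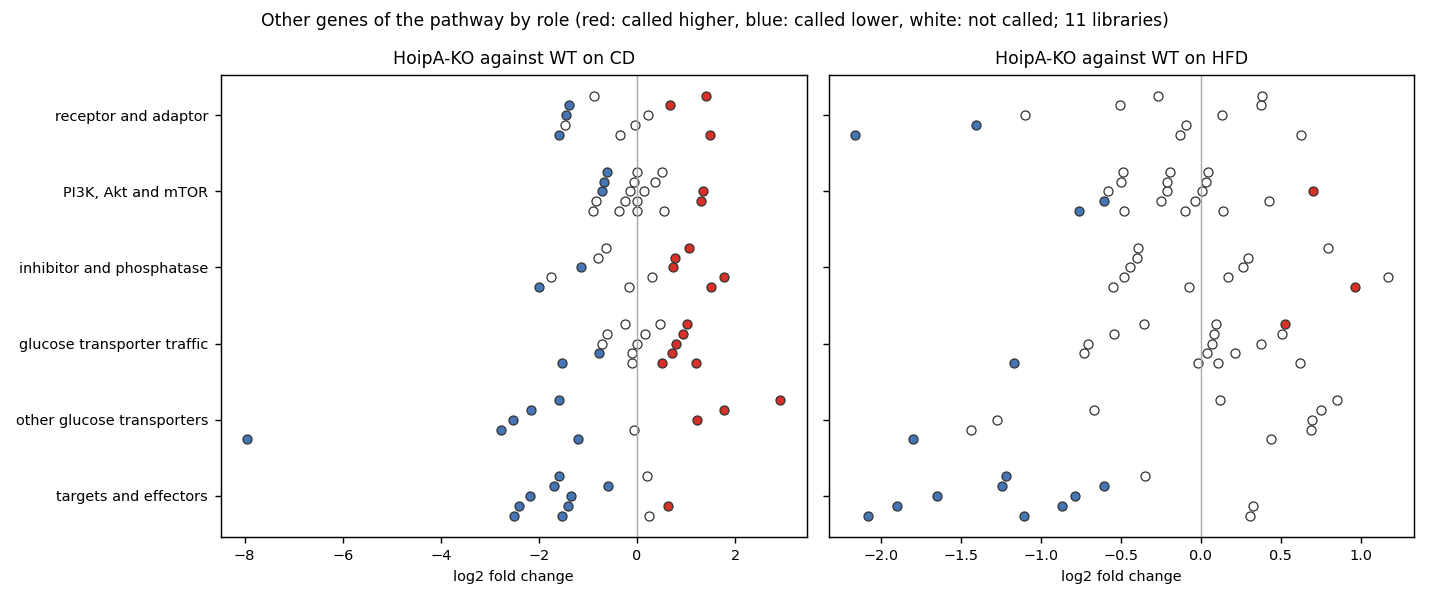
Log2 fold change of HoipA-KO against WT (x axis) for the 79 other pathway genes tested, 1 row per role, on CD (left) and HFD (right), in the fit of 11 libraries; red is called higher, blue called lower and white not called, and the x axes differ. In the row of targets and effectors 9 of 12 points are blue on both diets, while the other rows are mixed; the point near -8 on CD is Slc2a5.

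Between the diets, few of the 8 genes passed. In WT, 1 of 8 passed for HFD against CD, Irs1 (log2 fold change -1.01, SE 0.270, edgeR adjusted p = 0.0359), where 5.47% of all genes were called lower and 9.35% higher (677 lower and 2108 higher by library size, 1008 and 1723 by TMM). That call was lost without WT CD replicate 1 (-0.42, adjusted p = 0.221), without any 1 of the WT HFD replicates and without HoipA-KO CD replicate 1. With replicates 2 and 3 as the WT CD pools, Irs1 was at -0.09 (adjusted p = 0.812) and the call was Akt2, at 0.68 (adjusted p = 0.0167). With all 12 libraries none of the 8 passed, where 5.97% of all genes were called lower and 9.05% higher. At an unadjusted p of 0.05 in the fit of 11, 2 of 8 passed, as did 5907 of 18427 genes. DESeq2 called 2 of the 8, and over all genes it called 2155 lower and 2396 higher. For Slc2a4 the log2 fold change was -1.11 (95% interval -1.995 to -0.22, edgeR adjusted p = 0.0874), and for Akt2 it was 0.09 (95% interval -0.41 to 0.58). The means ± SD of Slc2a4 were 159.9 ± 112 CPM in WT CD and 93.2 ± 26.4 CPM in WT HFD (n = 3 each), and those of Akt2 255 ± 102 and 310.5 ± 31.5 CPM.

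In HoipA-KO, 0 of the 8 and 0 of 18427 genes passed in edgeR for HFD against CD, 0% in either direction, with 415 genes and none of the 8 at an unadjusted p under 0.05, and DESeq2 called 7 genes, none of them among the 8. The estimates of the 8 lay between -0.48 (Grb14, 95% interval -1.44 to 0.48) and 0.20 (Tbc1d4, -0.18 to 0.57). Scaling by library size moved the median of all genes from -0.01 to 0.09 and turned the sign of the small differences of Insr and Akt2. Slc2a4 was at 35.4 ± 11.2 CPM in HoipA-KO CD and 28.1 ± 6.45 CPM in HoipA-KO HFD, and Insr at 52.8 ± 8.88 and 50.2 ± 0.914 CPM (n = 3 each). The interaction, that is the difference between the genotype effects on the 2 diets, passed in none of the 8 (3.58% of all genes lower, 0.331% higher). None of the 8 was at an unadjusted p under 0.05, against 4228 of 18427 genes. DESeq2 called 0 of the 8, and over all genes it called 1469 lower and 905 higher. The interaction estimates ran from -0.65 for Grb14 (95% interval -2.09 to 0.78) to 0.82 for Irs1 (-0.002 to 1.64). The larger fall of Irs1 on CD and of Grb14 on HFD were thus not shown to differ between diets.

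The order of the group means was the same in most of the 8. HoipA-KO HFD had the lowest mean in 7 of them, and in Tbc1d4 HoipA-KO CD did (27.3 ± 2.45 against 31.6 ± 3.05 CPM). These 2 groups overlapped in every gene. The highest mean was that of WT CD in 6 genes and of WT HFD in Akt2 and Grb14, and the 2 WT groups also overlapped in every gene over the 12 libraries. Within WT CD, replicate 1 was the highest library in all 8 genes and replicate 3 the lowest, and the adipocyte marker sums of these libraries were 42247, 17987 and 11942 CPM in replicates 1, 2 and 3. The part of this spread in the results was not tested beyond the values without each library.

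Against the adipocyte markers the 8 genes look different. The mean log2(CPM + 1) of the 10 markers was 9.43 to 11.22 in WT and 7.90 to 8.81 in HoipA-KO, lower in HoipA-KO by 1.66 on CD and 2.01 on HFD. Each gene's log2(CPM + 1) less that mean was higher in HoipA-KO than in WT for 7 of 8 genes on CD and for all 8 on HFD, so most of them fell less than the marker list did. The difference was 1.15 and 1.10 for Irs2, 1.02 and 0.99 for Akt2, 0.88 and 1.45 for Pik3r1, and 0.93 and 1.39 for Tbc1d4, on CD and HFD. Irs2, Pik3r1, Akt2 and Tbc1d4 had all 6 HoipA-KO libraries above all 6 WT libraries on this scale, and Insr, Irs1 and Grb14 had not. For Insr it was 0.66 and 1.07, for Irs1 0.35 and 1.05, and for Grb14 0.76 and 0.10.

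Slc2a4 was the only one of the 8 with a difference below 0. It was -0.30 on CD, with every HoipA-KO CD library (-3.52 to -3.31) below every WT CD library (-3.20 to -3.02), and 0.33 on HFD, with WT HFD at -3.92 to -3.58 and HoipA-KO HFD at -3.65 to -3.25. These are descriptions without a test, since the marker genes were themselves among those that changed.

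**Figure D5:**
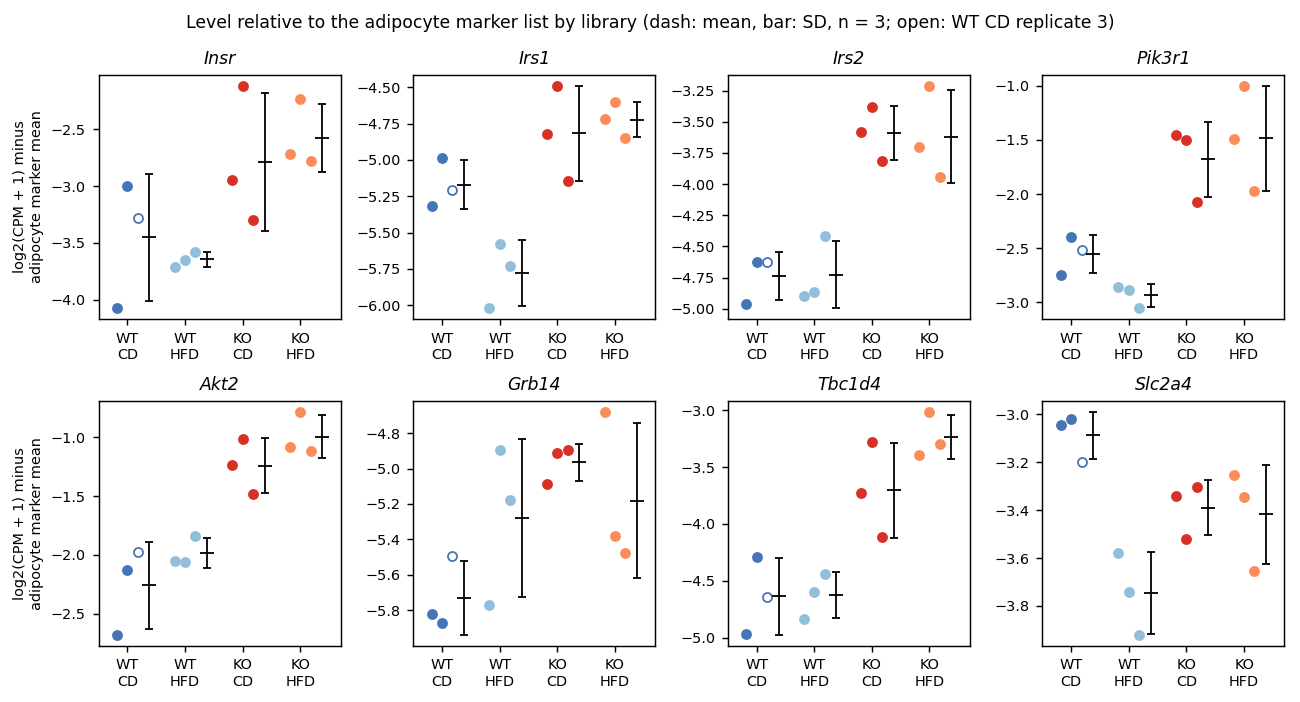
Log2(CPM + 1) of each gene minus the mean of the 10 adipocyte markers (y axis, log2 units) by library and group, with the dash and bar for the mean and SD of 3 libraries and the open circle for WT CD replicate 3; the y axes do not start at 0 and differ between panels. Irs2, Pik3r1 and Akt2 lie higher in HoipA-KO than in WT, while Slc2a4 lies within 1 unit in all libraries.

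The 8 genes varied together over the 12 libraries. Pearson's r of log2(CPM + 1) between 2 of them ran from 0.723 (Pik3r1 and Grb14) to 0.964 (Irs1 and Slc2a4), with a median of 0.882 over the 28 pairs. The libraries share the genotype difference and the spread within WT CD, so these values are a description. Among 10395 genes with a mean of at least 10 CPM, those most like Slc2a4 were Klf15 (r = 0.990), Gpat3 (0.989) and Gjc1 (0.989), and those most like Insr were Tmx2 (0.990), Mmut (0.982) and Zbtb20 (0.976). For Irs1 they were Cbr4 (0.983), Sdha (0.979) and Blcap (0.979), and for Irs2 Cebpa (0.972), Dlc1 (0.967) and Sh2b2 (0.958), the last of them also in the pathway list. Akt2 was nearest to Olfml1 (0.991), Ptprb (0.990) and Flt1 (0.990). For Tbc1d4 they were Enpep (0.970), Uap1 (0.967) and Etfa (0.965), for Grb14 Slc7a10 (0.964), C1rl (0.961) and Cidec (0.960), and for Pik3r1 Arhgap24 (0.957), Pygl (0.949) and Zhx2 (0.939), each over the 12 libraries.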

How the data were processed

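RNA sequencing libraries of GWAT were made with a stranded polyA kit from pools of 3 mice each, 12 libraries in 4 groups. The authors ran the nf-core pipeline, which trimmed reads with Trim Galore 0.6.7, aligned them with STAR 2.7.10a and estimated reads per gene with Salmon 1.5.2. The authors deposited these estimated counts per gene for all 55281 genes and for protein-coding genes, without normalization. The submitters' processing notes name GRCm38, whereas the methods name a human assembly. The identifiers are those of mouse genes, and positions and exon lengths were taken from GENCODE M21 (GRCm38), in which all 8 genes matched by identifier and name. Promoter windows are from RefSeq (GRCm38.p6). The authors also deposited DESeq2 1.38.1 comparisons with their fold changes, p-values and CPM for 11 libraries, which are not used here.

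Estimated counts were rounded, and genes with few counts were removed by filterByExpr. After TMM normalization, 1 model of the 4 groups was fitted with edgeR 4.0.16 (R 4.3.3, limma 3.58.1). Contrasts were tested with the quasi-likelihood test and Benjamini-Hochberg adjustment over all genes tested, at 0.05. "Called" means past this threshold. The fit took 11 libraries, without WT CD replicate 3, as in the deposited comparisons. The reason it was left out is not given in the sources used here. CPM levels were normalized by TMM over all 12 libraries, and 3 counts were taken as the floor. CPM per kilobase divides by the length of all annotated exons of a gene.

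The 8 genes, the list of other pathway genes and the marker lists were chosen with earlier results of these data known. Named beside the 8 genes are pathway genes called the same way on both diets, the most abundant gene of each role, the 3 genes most like each member, and Rnf31, and some genes that this rule names are not reported here. Pik3r2, Igf1r, Grb10, Tbc1d1, Ptpn1, Sort1, Ppp2r5c, Foxo3, Pik3ca, Gsk3a, Gsk3b, Irs4 and the other glucose transporters were added to these once their values were known. Alternatives tried were other normalizations (DESeq2 1.42.0 size factors or library size), filters, protein-coding genes only, all 12 libraries or other pairs of WT CD libraries, a model with the replicate number as a block, fits of the compared groups alone, DESeq2's Wald test, stricter thresholds, and leaving out each library.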

Additional observations from a re-analysis of the deposited data

Results flagged for a closer look

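For 3 glucose transporters other than Slc2a4, the interaction term of the edgeR model passed in the fit of 11 libraries. Interaction calls depended on single libraries. Over all genes, 660 were called lower and 61 higher, but 1 and 0 without HoipA-KO HFD replicate 3, and 4 and 0 without WT HFD replicate 2. Without WT HFD replicate 1 they were 945 and 54. The interaction on the log2 scale, HFD minus CD, was 3.21 for Slc2a3 (edgeR adjusted p = 0.0256), 8.79 for Slc2a5 (adjusted p = 0.0301) and -2.22 for Slc2a6 (adjusted p = 0.0279). For Slc2a3 and Slc2a5, the WT CD libraries with the highest levels were those with the highest sums of male germ cell markers, as given above, and the part of these transcripts in the interaction was not tested. Slc2a6 was at 0.520 to 0.780 CPM in WT CD, 1.46 to 2.16 CPM in WT HFD, 4.39 to 6.31 CPM in HoipA-KO CD and 2.43 to 3.13 CPM in HoipA-KO HFD, with no overlap between the groups.

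WT CD replicate 3, which is outside the fit, held 9124 CPM of 7 male germ cell markers, against 0.0222 to 434 CPM in the other 11 libraries.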

How the results depend on the processing

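In HoipA-KO against WT, the sign of all 8 genes held under every alternative on both diets. On CD, 148 of 176 values of single genes kept their side of the threshold, 17 lost the call and 11 gained one, and on HFD 128 kept it and 48 lost it. The number of the 8 called on CD (7) was 3 with WT CD replicates 2 and 3 as the WT CD pools, and 4 with replicates 1 and 3, with only the groups compared or at an adjusted p under 0.01, and it was 4 to 8 without 1 library. On HFD (7) it was 0 with all 12 libraries, with WT CD replicates 1 and 3 or at 0.01, 4 with a log2 fold change beyond 1, and 0 to 7 without 1 library. For HFD against CD in WT (1) it was 0 with all 12 libraries, with WT CD replicates 1 and 3, with only the groups compared or at 0.01, 2 with DESeq2, and 0 to 3 without 1 library. The interaction (0) was 1, Irs2, with WT CD replicates 2 and 3.

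Of the other pathway genes, the 45 called on CD were 26 at 0.01 and 34 to 47 without 1 library. The 18 on HFD were 3 with all 12 libraries or WT CD replicates 1 and 3, 32 with DESeq2, 1 at 0.01, 10 with a log2 fold change beyond 1, and 1 to 26 without 1 library (1 without HoipA-KO HFD replicate 2, 2 without WT HFD replicate 1 or 2, 3 without HoipA-KO HFD replicate 3). The 7 for diet in WT were 4 without the filter, 30 with WT CD replicates 2 and 3, 0 with only the groups compared, 12 with DESeq2, 2 at 0.01, and 2 to 23 without 1 library (23 without WT CD replicate 1). The 3 interactions were 15 with WT CD replicates 2 and 3, 6 with DESeq2, 0 at 0.01, and 0 to 12 without 1 library (12 without WT CD replicate 1). Where a library is left out of WT CD, the lone pool left is assumed to vary like the other groups.

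Some differences between diets turned sign, including interactions that were 0.82 for Irs1, 0.76 for Slc2a4 and 0.60 for Pik3r1 in the fit of 11 libraries, and diet in WT of -0.70 for Pik3r1. With WT CD replicates 2 and 3, diet in WT gave 0.072 for Insr, 0.51 for Irs2, 0.14 for Pik3r1 and 0.42 for Tbc1d4, and the interaction gave -0.15 for Insr, -0.089 for Irs1, -0.23 for Pik3r1, -0.21 for Tbc1d4 and -0.32 for Slc2a4. With library size, diet in HoipA-KO gave 0.026 for Insr and 0.070 for Akt2. The interaction of Irs2 was 0.030 with DESeq2's size factors, DESeq2's test or at least 10 counts in every library, 0.028 without the filter and 0.066 with protein-coding genes only. Without 1 library, diet in WT ran from -0.72 to 0.29 for Irs2, -0.24 to 0.52 for Akt2, -0.37 to 1.06 for Grb14 and -0.61 to 0.051 for Tbc1d4. Diet in HoipA-KO ran from -0.19 to 0.067 for Insr, -0.20 to 0.099 for Pik3r1 and -0.11 to 0.035 for Akt2, and the interaction from -0.60 to 0.39 for Irs2, -0.55 to 0.21 for Akt2 and -0.025 to 1.26 for Slc2a4. The cause was not tested.

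Over the 4 groups, deviations from the group means correlated at -0.371 to 0.499 over 15 pairs of libraries with the same replicate number. They were above 0.1 in 6, and 5 of 11 libraries correlated best with their own number. The deviations of the 2 WT CD pools mirror each other, as in r of -0.371 and 0.371 with HoipA-KO HFD replicate 1. The check thus cannot decide on pairing in WT CD. Between the diets within HoipA-KO, all 3 pairs were above 0.1 (0.139, 0.499 and 0.277), and with the block 0 of the 8 and 0 of all genes were called there, as without it. With a replicate block, 7 of the 8 were called on each diet as without it, and 0 in place of 1 for diet in WT. Of the other pathway genes, 36 were called on CD, 20 on HFD, 4 for diet in WT and 2 interactions with the block. No member had fewer than 212 counts in a library. Whether the 2 or 3 pools per group limit the precision more than depth does was not tested.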
